A study of Rattus norvegicus with 6 samples.

Results

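The genes described here are the glucocorticoid receptor, Nr3c1, 8 genes that glucocorticoids are known to induce through it in many tissues (Fkbp5, Tsc22d3, Sgk1, Dusp1, Zbtb16, Klf9, Cebpd and Cebpb), and Hsd11b1, the enzyme that regenerates active hormone inside cells. They were chosen by name. A probe set (a group of short probes against 1 transcript) was taken where its annotation gave exactly 1 gene symbol equal to one of these. By this rule 16 of the 31042 probe sets on the array belonged to 9 of the 10 genes, out of 14217 genes with such a probe set. Zbtb16 was matched by no probe set and was not analysed here. Each gene was read on the probe set with the highest mean over the 6 arrays, and the others served as a check.

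The receptor is a hormone-activated transcription factor. Without hormone it waits in the cytosol in a complex with Hsp90 and its cochaperones. With corticosterone, the main glucocorticoid of rats, it moves to the nucleus, where it binds paired sites in DNA and induces some genes while restraining others, many of them inflammatory. Glucocorticoids are released in larger amounts during fasting, and in beta cells they are known for restraining insulin secretion.

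Beta cells were taken from 10-week-old male Wistar rats that either had been deprived of food for 24 h (fasted) or had eaten freely (fed). Each group had 3 isolates. Every isolate pooled 5 rats, was sorted by FACS to about 92% insulin-positive cells and was hybridized on 1 array after RNA of all isolates had been extracted as a batch. The labels name no drug and no altered allele in either group. Of 9 beta cell markers 7 were measured, and their summed intensity was 22725 to 24166 on fasted and 23603 to 24768 on fed arrays. Most of that sum came from Ins1, Ins2 and Iapp, at 5783 to 6829 on fasted and 5686 to 7078 on fed arrays, near the highest intensity of any probe set on an array (6999.96 to 7367 on fasted and 7125 to 7629 on fed arrays), so it can hardly show a difference. Of the dimmer markers, Mafa had a log2 change (fasted over fed) of -0.34 and Pdx1 of 0.53, and neither passed both thresholds. Transcripts of other pancreatic cells were also present, with 66074 to 76421 on fasted and 71915 to 78851 on fed arrays for 15 acinar markers, whose members are abundant enzymes, and 5051 to 5834 on fasted and 3561 to 7770.0 on fed arrays for 3 alpha cell markers. Among the markers of all cell types checked, only Krt19 (duct cells) and Flt1 (endothelial cells) passed both thresholds, each as higher. In such a bulk sample, fewer cells of a type and less RNA per cell cannot be told apart.

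Rat promoters were searched for elements of the receptor. RefSeq sequences (build GRCr8, from 250 bases before to 50 after a transcription start) were at hand for 12 starts of 7 of the genes. The other genes are Zbtb16, Cebpd and Hsd11b1. Both strands were searched. The full glucocorticoid response element, AGAACA and its reverse complement with 3 bases between them, was found in 0 of these 12 windows and in 0.0149% of 33469 windows of all genes. A looser core of the element was in 0 of 12, against 0.439%. AGAACA alone, which is part of the full element, was in 0 of 12, against 20.7% of all. The cAMP response element TGACGTCA was in 1 window, that of Dusp1, against 1.83% of all windows, and the shorter TGACG, which the full element holds on both strands, in 4 of 12 (Tsc22d3, Dusp1, Klf9 and Cebpb), against 21.2%. TATAAA was in 4 of 12, against 14.2%, the GC box GGGCGG in 9 of 12, against 33.1%, and the C/EBP box TTGCGCAA in 0 of 12, against 0.17%. These matches are letters only, and sequence outside the windows was not searched. Elements as rare as the full receptor element and its core are unlikely in any 12 windows, so their absence here says little. The 4 windows below are a selection from the 12. Tsc22d3 and Sgk1 were taken because their values correlated over the arrays, both being lowest on fasted replicate 1. Klf9 was taken because the groups did not overlap on its brightest probe set, and Dusp1 because it held the full cAMP element. Fkbp5 showed no overlap on its brightest probe set either, and its window, not shown, held none of the motifs marked below. Tsc22d3 and Sgk1 each had further windows that are not shown. Capitals mark TGACG, TGACGTCA or TATAAA.
Tsc22d3, chrX:109009985-109010284, minus strand: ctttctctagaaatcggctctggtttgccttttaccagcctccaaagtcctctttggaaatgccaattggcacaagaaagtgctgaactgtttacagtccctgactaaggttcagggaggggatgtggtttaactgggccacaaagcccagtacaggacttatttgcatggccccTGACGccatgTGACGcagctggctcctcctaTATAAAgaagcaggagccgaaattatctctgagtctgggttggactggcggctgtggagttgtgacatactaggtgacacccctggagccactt
Sgk1, chr1:24804782-24805081, minus strand: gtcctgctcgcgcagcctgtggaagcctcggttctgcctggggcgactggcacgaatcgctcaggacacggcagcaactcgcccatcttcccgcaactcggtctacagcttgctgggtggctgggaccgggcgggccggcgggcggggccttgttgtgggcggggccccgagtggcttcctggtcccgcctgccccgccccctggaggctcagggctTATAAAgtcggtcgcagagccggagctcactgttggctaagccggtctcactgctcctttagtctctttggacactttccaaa
Klf9, chr1:230126396-230126695, plus strand: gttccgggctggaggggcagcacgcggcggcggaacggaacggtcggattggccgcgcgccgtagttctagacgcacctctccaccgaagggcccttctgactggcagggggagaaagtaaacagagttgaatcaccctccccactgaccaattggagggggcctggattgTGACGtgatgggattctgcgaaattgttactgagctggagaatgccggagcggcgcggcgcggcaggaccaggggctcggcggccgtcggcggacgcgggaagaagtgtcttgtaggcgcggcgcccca
Dusp1, chr10:17184603-17184902, plus strand: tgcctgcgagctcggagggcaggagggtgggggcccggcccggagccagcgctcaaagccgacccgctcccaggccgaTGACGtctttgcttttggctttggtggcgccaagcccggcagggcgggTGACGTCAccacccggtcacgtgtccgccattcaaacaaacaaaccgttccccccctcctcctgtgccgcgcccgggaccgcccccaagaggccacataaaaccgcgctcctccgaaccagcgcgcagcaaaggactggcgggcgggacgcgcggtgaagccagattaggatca
In Tsc22d3 the pair of TGACG motifs began at -75 and -65 and TATAAA at -44, counted from the transcription start. In the Sgk1 window shown TATAAA began at -33, and in another Sgk1 window at -55. In Klf9 TGACG began at -79, and in Dusp1 TGACG at -172 and TGACGTCA at -124.

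Values are the linear intensities that the authors computed with dChip. A change is the log2 ratio of fasted over fed after values under 3.27 (the 10th percentile) had been raised to it, with its standard error (SE), and it was tested with limma over all 31042 probe sets. A gene was called where it passed both thresholds of the study, 1.5-fold and an unadjusted p under 0.05. No probe set passed an adjusted p under 0.05 in limma (Benjamini-Hochberg), while 4622 had an unadjusted p under 0.05. Of the alternative settings 5 gave such calls, namely 75 lower and 8 higher after adding a pseudocount, 80 and 8 under robust variances, 113 and 11 among brighter probe sets alone, 0 and 1 over the floor of 7.53, and 7518 and 2455 by array weights that did not converge. With 3 against 3 arrays the smallest p of a two-sided exact permutation test is 0.1. The arrays were not alike. Median intensity was 17.1, 17.8 and 21.0 on fasted replicates 1 to 3 and 20.2 to 21.8 on fed arrays, and the median log2 change over all probe sets was -0.20. With quantile-normalized arrays it was -0.02, and with arrays scaled to a common 75th percentile (upper-quartile scaling) 0.01. The share of lower probe sets among those called was 78% as deposited, 54.1% after quantile normalization and 48.2% after upper-quartile scaling. Fasted replicate 1 stood apart, since it held the highest or the lowest of the 6 values for 62.2% of all genes, against 22% to 33.1% for the other arrays.

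Over the 9 genes there was no common direction. At the thresholds of the study 1 of 9 genes was higher in fasted rats (Cebpd), 0 were lower and 8 did not pass. Of all genes 2.29% were higher and 9.51% lower by this rule, 11.8% together (2.37%, 8.43% and 10.8% of all probe sets). The median log2 change of the 9 genes was -0.01, against -0.19 over all genes, with 5 changes below 0 (among them Hsd11b1, which lay mostly under the floor) and 4 above 0. The arrays of the groups did not overlap for 4 of the 9 genes, Fkbp5 and Cebpd with higher values in fasted rats and Klf9 and Sgk1 with lower values. Such separation was seen in 27% of all genes, with higher fasted values in 5.76% and lower ones in 21.2%.

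**Figure D1:**
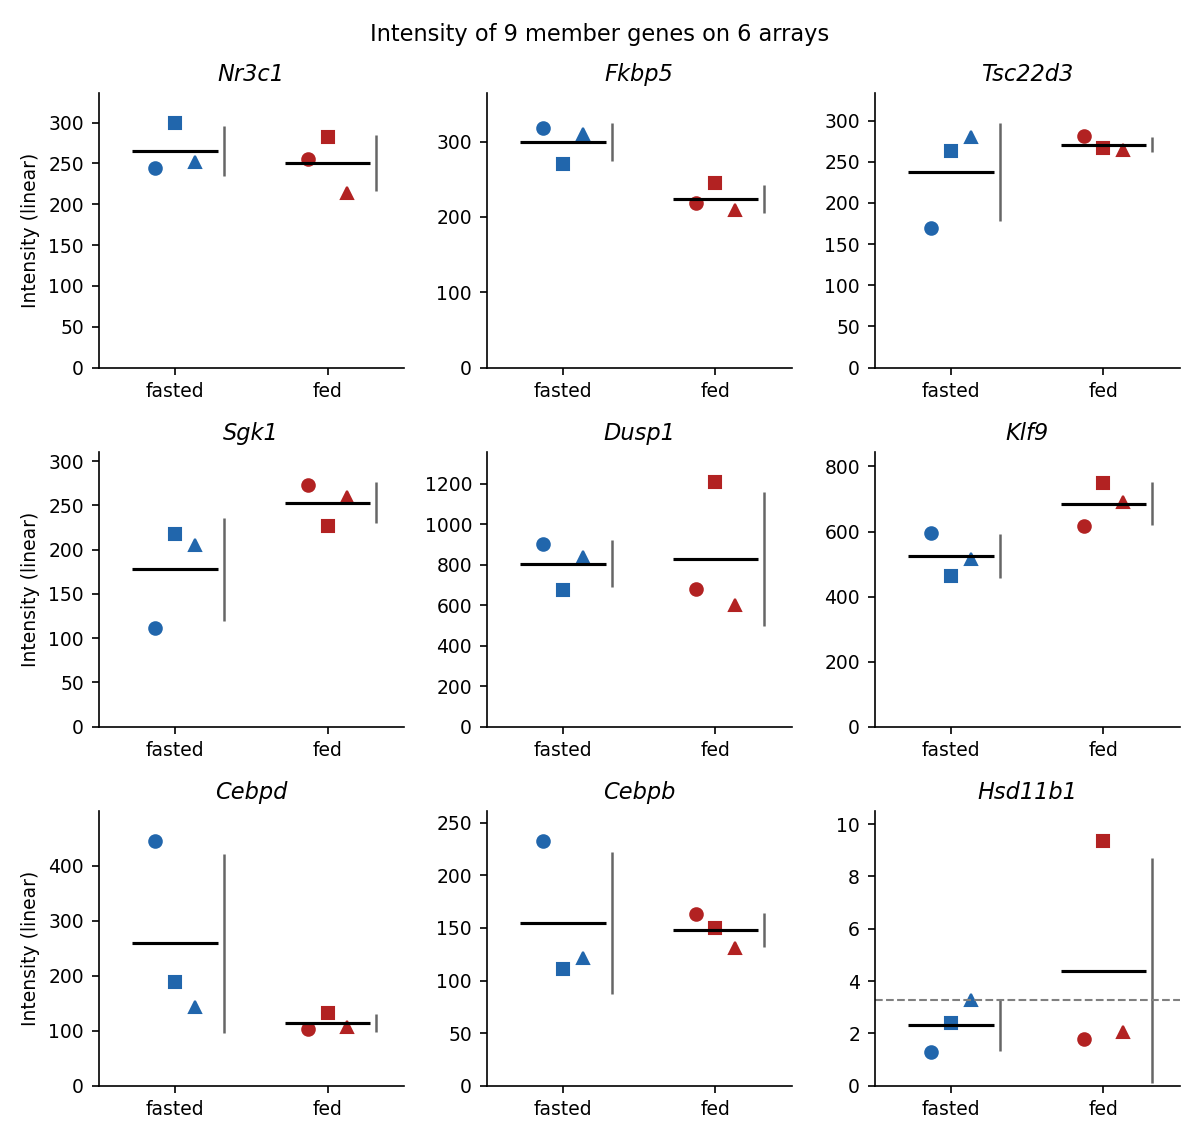
Linear intensity (y axis, from 0) of 9 genes on the arrays of fasted (left, blue) and fed rats (right, red); circles, squares and triangles are replicates 1, 2 and 3, horizontal bars the means and vertical bars 1 SD (n = 3 each), and the dashed line in the Hsd11b1 panel the floor of 3.27. Fasted replicate 1 (blue circle) is far above the others for Cebpd, at 445, and far below for Sgk1, at 111.

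The receptor itself had like intensities in both groups. Nr3c1 measured 244, 299.6 and 252 on fasted arrays and 256, 282 and 214 on fed arrays. The highest of the 6 values came from a fasted and the lowest from a fed array, and the groups overlapped. The mean was 265 ± 30.1 in fasted and 251 ± 34.6 in fed rats (SD, n = 3 each). In log2 terms Nr3c1 changed by 0.09 (SE 0.14, unadjusted p = 0.563, adjusted p = 0.766 from limma), which did not pass. The 95% interval of the change ran from -0.25 to 0.42, so that on the deposited values 1.5-fold in either direction lay outside it. A second, dimmer probe set of Nr3c1 gave 11.2, 15.6 and 19.2 on fasted and 24.5, 28.6 and 7.08 on fed arrays, with a much wider interval (-1.66 to 1.28). With upper-quartile scaling the log2 change for Nr3c1 was 0.33 (unadjusted p = 0.0771 from limma).

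Of the enzymes that set the hormone level inside the cell, Hsd11b1 and H6pd were dimmer than the median probe set and Hsd11b2 was brighter. Hsd11b1, which turns inactive 11-dehydrocorticosterone back into corticosterone, measured 1.3, 2.41 and 3.26 on fasted and 1.77, 9.36 and 2.05 on fed arrays. Only fed replicate 2 was above the floor of 3.27, so no fold is given. H6pd supplies the NADPH that the enzyme needs in the endoplasmic reticulum. It measured 3.71, 9.26 and 10.4 on fasted and 27.1, 15.1 and 27.99 on fed arrays. All fasted values lay under all fed ones, and H6pd was lower (log2 change -1.67, SE 0.53, unadjusted p = 0.0185, adjusted p = 0.276 from limma). Without fed replicate 1 or fed replicate 3 it no longer passed. Hsd11b2, the opposing enzyme that inactivates corticosterone, measured 8.77, 26.1 and 39.7 on fasted and 40.4, 35.3 and 26.2 on fed arrays and overlapped. The mineralocorticoid receptor Nr3c2, which also binds corticosterone, measured 20.1, 19.5 and 24.5 on fasted and 20.5, 27.9 and 10.4 on fed arrays, with a log2 change of 0.23 (SE 0.43) that did not pass. Among 7 measured genes (of 13 listed) for steroid supply and related receptors H6pd was the 1 called, beside 11.8% of all genes. The median log2 change of the 7 was -0.59. That median was set by dim genes, since it was -0.05 with the floor at 7.53 and -0.39 with upper-quartile scaling. Esr1, at 2.96 to 5.89 on fasted and 4.4 to 7.79 on fed arrays, did not pass. Crh, the hypothalamic hormone that starts the stress response, was under the floor on all 3 fasted arrays, so no fold is given.

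The fasted and fed values of Fkbp5 stood apart, with little spread within each group. It encodes a cochaperone of Hsp90 that lowers the affinity of the receptor for hormone, and it is itself a strongly glucocorticoid-induced gene. Intensities were 318, 270.3 and 310.4 on fasted arrays and 219, 245 and 209 on fed arrays. Every fasted value was above every fed value. The mean was 299 ± 25.4 in fasted and 224 ± 18.5 in fed rats (SD, n = 3 each), a ratio of 1.34 that did not reach 1.5-fold. The log2 change was 0.42 (SE 0.11, unadjusted p = 0.00752, adjusted p = 0.228 from limma), with a 95% interval of 0.16 to 0.68. Relative to the median of all probe sets it was 0.62. With upper-quartile scaling it was 0.66, past both thresholds (unadjusted p = 0.00308 from limma), and without any 1 array it lay between 0.37 and 0.49. The dimmer probe set of Fkbp5 did not follow. It measured 28.7, 47.0 and 61.6 on fasted and 40.7, 61.9 and 32.1 on fed arrays, with a log2 change of 0.01 (SE 0.37). With the mean of its probe sets the log2 change of Fkbp5 fell to 0.22 (unadjusted p = 0.335 from limma).

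Of the other chaperones of the receptor complex, 15 of 17 listed were measured. At the thresholds of the study 2 were lower and 0 higher, beside 9.51% and 2.29% of all genes. The median log2 change was -0.11, beside -0.19 over all genes. Direction and counts moved with the scaling: the median was 0.0078 with 0 lower and 0 higher after quantile normalization and 0.13 with 0 lower and 1 higher with upper-quartile scaling. Without fed replicate 1, 1 was lower and 2 were higher. Fkbp4, a cochaperone that links the receptor to its transport into the nucleus, measured 78.5, 92.4 and 143 on fasted and 168, 150.2 and 158 on fed arrays. Its log2 change was -0.65 (SE 0.23, unadjusted p = 0.0284, adjusted p = 0.292 from limma), and the lower call held in 9 of 17 alternative settings, being lost without any 1 array other than fasted replicate 3. Stip1, which hands clients from Hsp70 to Hsp90, measured 158, 183 and 246 on fasted and 319.8, 264 and 317 on fed arrays (log2 change -0.64, SE 0.18, unadjusted p = 0.0125, adjusted p = 0.262 from limma). Neither Fkbp4 nor Stip1 passed under either other scaling or without fasted replicate 1. Hsp90ab1 itself had a log2 change of -0.46 and Ppid of -0.17, and neither reached 1.5-fold. Of 20 measured coregulators, the proteins that the bound receptor recruits to chromatin, 0 passed in either direction, beside 11.8% of all genes. The median log2 change was -0.05, and it turned to 0.18 after quantile normalization and 0.20 with upper-quartile scaling. With array weights or without fasted replicate 3, 1 coregulator was higher. The ones with the largest t statistics were Hdac1 (log2 change -0.41), Smarca4 (-0.34), Ehmt2 (-0.28) and Med14 (-0.37).

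**Figure D2:**
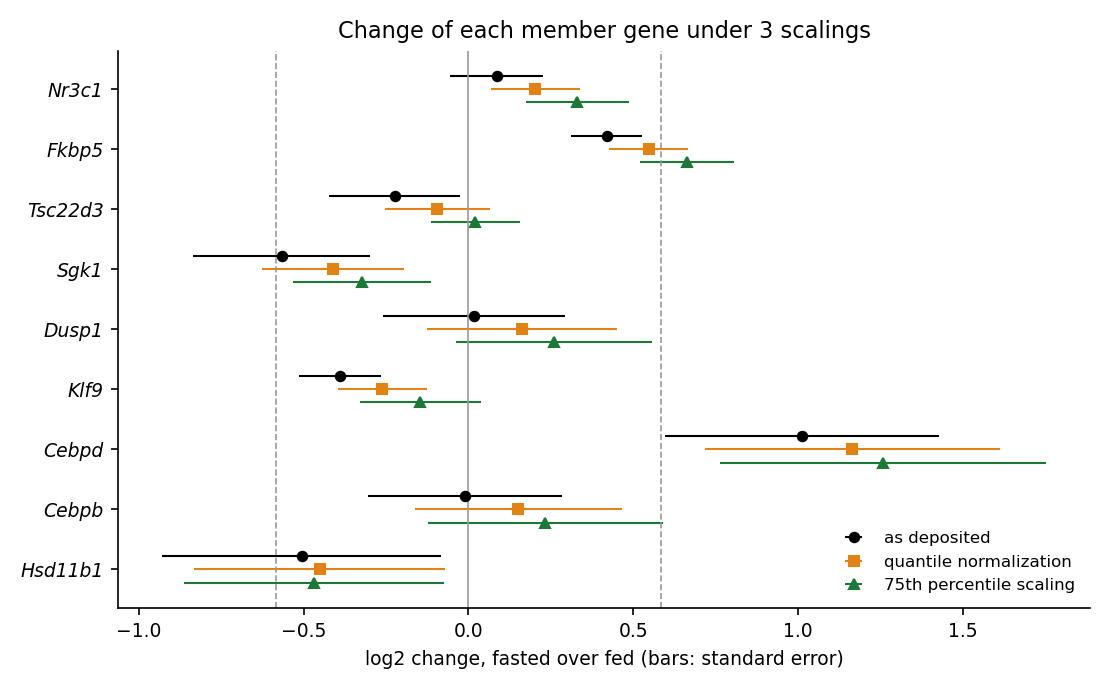
Log2 change of fasted over fed (x axis) for 9 genes (y axis), with bars of 1 standard error, on the deposited values and after 2 other scalings of the arrays; dashed lines mark 1.5-fold. Fkbp5 lies at 0.42, 0.55 and 0.66 and Sgk1 at -0.57, -0.41 and -0.32, so that both scalings move each gene upward while Fkbp5 and Cebpd stay above 0 and Sgk1 and Klf9 below 0.

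Sgk1 and Tsc22d3 had their lowest values on the same array. Sgk1, a kinase of ion transport that glucocorticoids induce within hours, measured 111, 218 and 205 on fasted and 273, 227 and 259 on fed arrays. The groups did not overlap, although fasted replicate 2 and fed replicate 2 lay close together. The log2 change was -0.57 (SE 0.27, unadjusted p = 0.0777, adjusted p = 0.369 from limma), and it did not pass. Without fasted replicate 1 it was -0.26, and without fasted replicate 2 it was -0.74 and past both thresholds (unadjusted p = 0.0465 from limma). Tsc22d3, the leucine zipper protein GILZ that restrains inflammatory transcription factors, measured 169, 264 and 279.8 on fasted and 282, 267 and 264 on fed arrays. Fasted replicate 1 was low and the other 5 arrays lay between 264 and 282. The log2 change of Tsc22d3 was -0.22 (SE 0.20, unadjusted p = 0.302 from limma), and 0.0040 without fasted replicate 1. Over the 6 arrays the log2 values of Sgk1 and Tsc22d3 had a Pearson r of 0.94, a description over arrays that share their scaling. This r leaned on fasted replicate 1, the lowest array for both genes. On the other 5 arrays Tsc22d3 stayed between 264 and 282 while Sgk1 ran from 205 to 273. Whether the 2 genes follow each other without fasted replicate 1 was not tested.

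Dusp1, the phosphatase that switches off MAP kinases, varied more within the fed group than between groups. It measured 901, 675 and 840.2 on fasted and 679, 1210.4 and 602 on fed arrays. Fed replicate 2 was the highest of all and fed replicate 3 the lowest. The log2 change was 0.02 (SE 0.28, unadjusted p = 0.956 from limma), with a 95% interval of -0.65 to 0.68, so that a change of 1.5-fold was not resolved at this number of arrays. The second probe set ran in parallel (Pearson r = 0.99 over 6 arrays), with 229, 114 and 210.3 on fasted and 144, 403 and 109.8 on fed arrays. The same array, fed replicate 2, also had the highest intensity of the alpha cell markers, 7770.0 summed, against 5051 to 5834 on fasted and 3561 and 4465 on the other fed arrays. Ppy, the hormone of PP cells, was at 4270.3 there, against 2997 to 3536 on fasted and 2057 and 2567 on the other fed arrays. The 8 markers of stellate cells and fibroblasts summed to 618 there, against 326 to 446 on fasted and 233 and 434 on the other fed arrays, and the 11 macrophage markers to 183, against 134 to 159 on fasted and 136 and 142 on the other fed arrays. Single markers did not all follow these sums. Among the macrophage markers only C1qc was highest on fed replicate 2. Among those of stellate cells and fibroblasts, Col1a2, Col3a1, Dcn, Lum and Vim were highest there, Pdgfrb was lowest and Col1a1 and Acta2 were neither. Gcg and Irx2 of the alpha cell markers were highest there, and Ttr was not. The part of any of these cells in the Dusp1 value was not tested.

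Klf9, a zinc finger repressor that links glucocorticoid signals to the clock, was read differently by its 3 probe sets. On the brightest it measured 596, 463 and 514 on fasted and 617, 749.7 and 692 on fed arrays, without overlap. The mean was 525 ± 67.2 in fasted and 686 ± 66.6 in fed rats (SD, n = 3 each), and the log2 change of -0.39 (SE 0.12, unadjusted p = 0.0188, adjusted p = 0.277 from limma) did not reach 1.5-fold. Relative to the median of all probe sets the change was -0.19. On a dimmer probe set Klf9 measured 43.8, 28.4 and 20.5 on fasted and 15.7, 17.7 and 16.6 on fed arrays, the reverse order and again without overlap (log2 change 0.82, SE 0.35, unadjusted p = 0.0554 from limma). The third gave 35.3, 22.6 and 31.0 on fasted and 31.3, 24.1 and 20.8 on fed arrays. The log2 change for the mean of the 3 probe sets was 0.22 (unadjusted p = 0.282 from limma), so the direction for Klf9 depends on the probe set. On the brightest probe set it was -0.26 (unadjusted p = 0.103) after quantile normalization and -0.15 (unadjusted p = 0.454 from limma) with upper-quartile scaling.

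Cebpd was the 1 gene that passed both thresholds. It encodes a basic leucine zipper factor of acute phase and adipocyte genes. Intensities were 445, 188 and 143 on fasted arrays and 103, 133 and 106 on fed arrays. Every fasted value was above every fed value, and the 3 fasted values spanned 3.12-fold, against 1.29-fold for the fed ones. The mean was 259 ± 163 in fasted and 114 ± 16.3 in fed rats (SD, n = 3 each). Its log2 change was 1.01 (SE 0.41, unadjusted p = 0.0491, adjusted p = 0.334 from limma). Without fasted replicate 1 the change was 0.53 and under 1.5-fold, with an unadjusted p of 0.0311 from limma. Of 17 alternative settings 10 lost the call, among them leaving out any 1 array other than fasted replicate 3, and 0 turned the direction. The adjusted p over these settings ranged from 0.0214 with array weights to 0.649. Of all genes 2.73% had a larger positive change. A second probe set of Cebpd was high on fasted replicate 1 only (61.8, against 23.7 and 21.2 on the other fasted and 23.1, 23.7 and 23.5 on fed arrays), and the third, the dimmest, showed 4.86, 12.7 and 13.8 on fasted and 13.5, 9.16 and 12.0 on fed arrays.

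Cebpb, the related factor that glucocorticoids and cAMP induce in liver, showed the same array as an exception. It measured 233, 111 and 122 on fasted and 163, 150.4 and 131 on fed arrays. Fasted replicate 1 was the highest of the 6 arrays and the other fasted arrays were the lowest. The log2 change was -0.01 (SE 0.29, unadjusted p = 0.971 from limma), with a 95% interval of -0.72 to 0.70. Among the 8 genes above the floor, fasted replicate 1 held the highest value of Fkbp5, Cebpd and Cebpb and the lowest of Tsc22d3 and Sgk1, beside the 62.2% of all genes for which it held an extreme. Of the 5 duct cell markers measured (of 6 listed), Krt7, Krt8 and Krt19 were highest on that array, Muc1 was lowest there (15.1, against 25.4 and 32.7 on the other fasted and 35.3 to 37.1 on fed arrays) and Cftr was neither. Krt7, Krt8 and Krt19 were also higher on each fasted than on each fed array, and Krt19 passed as higher (log2 change 0.70). The sum of the 5 markers, most of it Krt8, was 2320 to 2693 on fasted and 1850.0 to 2097 on fed arrays. Their part in the Cebpd and Cebpb values was not tested.

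**Figure D3:**
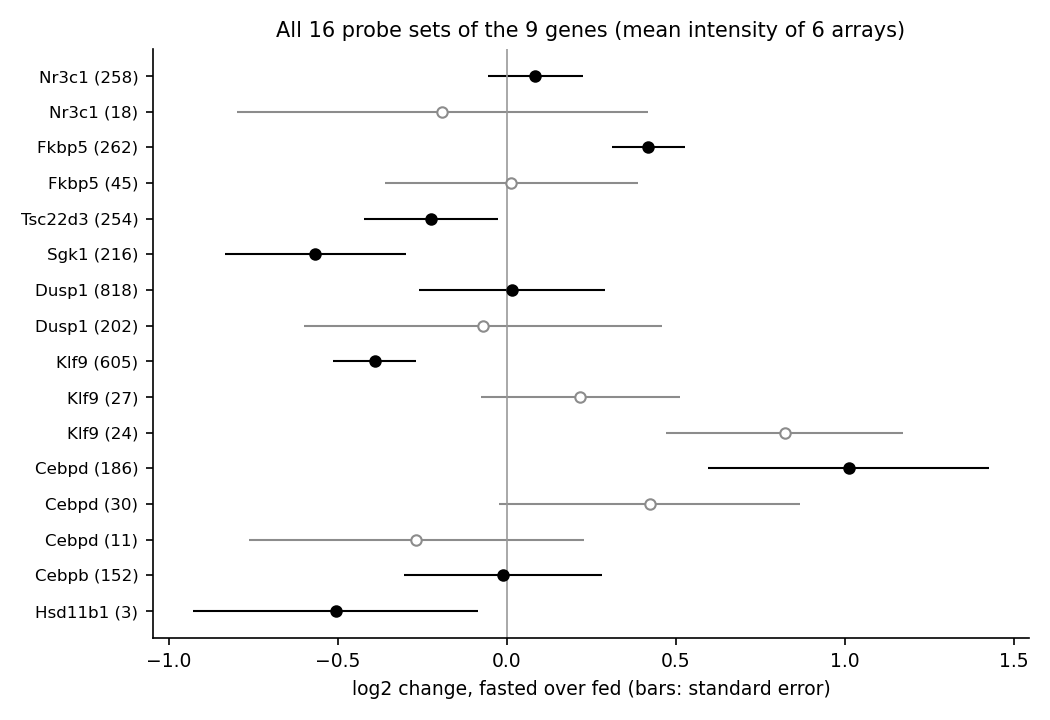
Log2 change of fasted over fed (x axis, bars of 1 standard error) for all 16 probe sets of the 9 genes, with the mean intensity of the 6 arrays in parentheses; filled black points are the brightest probe set of a gene and open grey points the others. The Klf9 probe sets lie at -0.39, 0.22 and 0.82 and those of Cebpd at 1.01, 0.42 and -0.27.

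Among 52 measured genes of a wider list of glucocorticoid-induced genes, 6 were lower and 1 was higher, beside 9.51% and 2.29% of all genes. The list's median log2 change was -0.21, beside -0.19 over all genes, and it was -0.03 after quantile normalization and 0.04 with upper-quartile scaling. Per1, a clock repressor with a well known receptor element, measured 8.98, 12.3 and 17.6 on fasted and 39.8, 35.1 and 39.6 on fed arrays. The fasted values were all far under the fed ones, with a log2 change of -1.61 (SE 0.33, unadjusted p = 0.00252, adjusted p = 0.19 from limma), and Per1 was lower in all 17 alternative settings. Ddit4, which restrains mTORC1, measured 56.7, 113 and 155 on fasted and 198, 215 and 179 on fed arrays (log2 change -0.98, SE 0.36, unadjusted p = 0.0327, adjusted p = 0.302 from limma). It kept its call in 10 of 17 settings and lost it without any 1 array other than fasted replicate 3. The repressor Bcl6 was lower as well, with 11.5, 6.26 and 8.29 on fasted and 16.8, 26.7 and 23.6 on fed arrays (log2 change -1.38).

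The 1 higher gene of this list was Mt2A, a metal-binding metallothionein. It measured 1158, 785 and 622 on fasted and 484, 428 and 485 on fed arrays, with every fasted value above every fed one. Its log2 change was 0.83 (SE 0.22, unadjusted p = 0.00933, adjusted p = 0.241 from limma), and 16 of 17 settings kept the call. The other lower genes, named after their values had been seen, were Agt (log2 change -2.03), Klf15 (-0.69) and Adra1b (-0.68). Agt lost its call in 7 of 16 settings, Klf15 in 10 of 17 and Adra1b in 11 of 16, and the mean of its probe sets turned the sign for Klf15 (0.54). Agt had 2 fasted arrays under the floor, with 2.83 to 10.3 on fasted and 11.0 to 46.0 on fed arrays. Nedd4l, a ubiquitin ligase that Sgk1 inhibits, measured 77.3, 88.9 and 74.2 on fasted and 120.2, 118 and 118 on fed arrays and did not reach 1.5-fold (log2 change -0.57, unadjusted p = 0.00272 from limma). Under either other scaling 4 genes of this list were lower and 5 higher, and without fasted replicate 1 the counts were 3 and 3.

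Of 26 genes that the receptor is known to restrain in immune or pituitary cells, 0 passed in either direction, beside 11.8% of all genes. The median log2 change was -0.03, and it turned to 0.12 after quantile normalization and 0.16 with upper-quartile scaling. With array weights 4 were lower and 1 higher. Under either other scaling 1 was higher, as in some further settings. The chemokine Cxcl1 measured 392, 409 and 212 on fasted and 121, 329 and 95.7 on fed arrays, and the groups overlapped through fed replicate 2. Its log2 change was 1.05 (SE 0.51, unadjusted p = 0.0822 from limma), and it passed as higher without fed replicate 2 and in 5 of the other settings. Il1b had a log2 change of -0.43 and Ccl3 of -0.61, and the dim Prl (8.91 to 16.4 on fasted and 2.66 to 9.73 on fed arrays) of 0.97. Prl passed as higher after quantile normalization (1.16), with upper-quartile scaling (1.19) and without fed replicate 1.

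Several of the genes above also respond within minutes to growth and calcium signals, so immediate early genes were set beside them. Of 31 measured, 6 were lower and 0 higher, beside 9.51% and 2.29% of all genes. Their median log2 change was -0.37, but -0.24 after quantile normalization and -0.13 with upper-quartile scaling, each with 5 lower. Nr4a2, an orphan nuclear receptor, measured 41.9, 60.5 and 55.6 on fasted and 123, 94.3 and 112 on fed arrays (log2 change -1.07, SE 0.19, unadjusted p = 0.00133, adjusted p = 0.176 from limma). Csrnp1 measured 218, 237 and 194 on fasted and 367, 457 and 382 on fed arrays (log2 change -0.89, SE 0.12, unadjusted p = 0.000316, adjusted p = 0.155 from limma). Egr1 (log2 change -0.52) and Junb (-0.48) showed no overlap between the groups and did not reach 1.5-fold. Dusp6 was lower too (log2 change -1.41), as were Klf10 (-1.22), Myc (-1.20) and Rhob (-0.62), the last 3 named after their values had been seen. Csrnp1, Nr4a2, Klf10, Myc and Dusp6 were lower in all 17 alternative settings, while Rhob lost the call in 5.

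Paralogs and family members of the genes were read next. Of 34 measured, 10 were lower and 0 higher, beside 9.51% and 2.29% of all genes. Their median log2 change was -0.43, beside -0.19 over all genes. After quantile normalization 7 were lower (median -0.20), with upper-quartile scaling 6 (median -0.18) and without fed replicate 1 only 4. Dusp6, a cytosolic phosphatase of ERK that also counts among the immediate early genes, measured 35.8, 70.3 and 107 on fasted and 166, 149 and 204 on fed arrays. Dusp10, a phosphatase of JNK and p38, measured 38.4, 58.1 and 66.8 on fasted and 84.9, 125 and 92.1 on fed arrays (log2 change -0.90). For both, all fasted values lay under all fed values. Fkbp7 (log2 change -0.84) and Klf11 (-0.80) were lower as well, Klf11 not with upper-quartile scaling, and whether these changes differ from those of Fkbp5 and Klf9 was not tested.

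**Figure D4:**
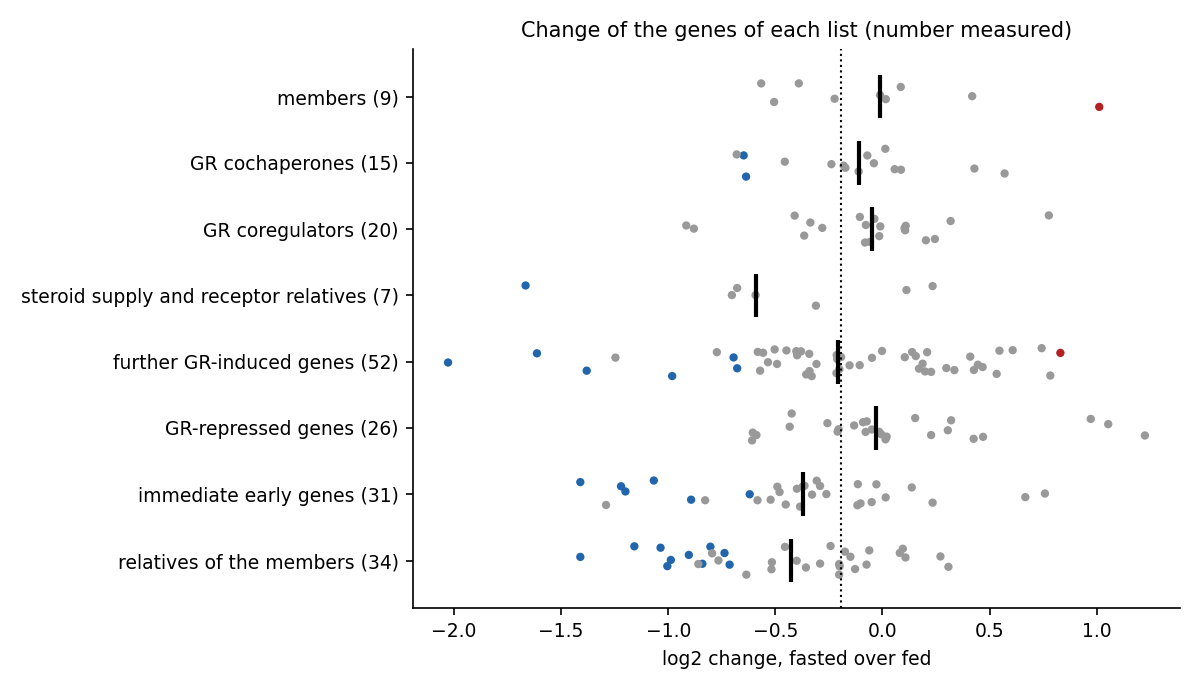
Log2 change of fasted over fed (x axis) for each gene of 8 lists (y axis, number measured in parentheses; GR, glucocorticoid receptor); blue and red points passed both thresholds lower and higher, grey points did not, bars are the medians and the dotted line the median of all genes, -0.19. The bar of the 9 genes stands at -0.01 and that of the immediate early genes at -0.37.

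The genes whose log2 values followed Nr3c1 most closely over the 6 arrays, among 9197 genes brighter than the median probe set, were Bmt2 (Pearson r = 0.99), Txnrd1 (0.98), Mdp1 (0.97), Prpf4 (0.97) and Chit1 (0.96). The most opposite were Vps11 (-0.98), Ndufv3 (-0.98), Polr1d (-0.97), Marcks (-0.97) and Slc41a1 (-0.97). With 6 arrays that share the scaling, such values are a description. Between the 9 genes, the correlations ran from -0.97 for Sgk1 and Cebpd to 0.94 for Sgk1 and Tsc22d3. Fasted replicate 1 held the lowest value of Sgk1 and Tsc22d3 and the highest of Cebpd.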

How the data were processed

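Beta cells of 3 isolates from fasted and 3 from fed rats were each hybridized on 1 Affymetrix array. The deposited values are linear intensities that the authors made in dChip by fitting a model to each probe set, with mismatch probes as background and all arrays brought to the one of median brightness. No dChip version was found in the sources used here. Per the labels the isolates are independent, so p-values measure the spread between isolates.

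Control probe sets (57) were removed. Intensities under 3.27 were set to 3.27, log2 was taken, and limma 3.58.1 (R 4.3.3) compared fasted with fed arrays by lmFit and eBayes with an intensity trend. The test was two-sided, without a block, and p-values were adjusted by Benjamini-Hochberg over 31042 probe sets. In the platform annotation 20826 of these had a single gene symbol. The members and lists were chosen with earlier results of these data known. By rule the text names every member, the 4 genes of each list with the largest absolute moderated t, 6 fixed genes and the 5 genes most like and most opposite to Nr3c1. The lists held receptor cochaperones, coregulators, steroid supply, further induced genes, repressed genes, immediate early genes and relatives of the members.

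As alternatives, the floor was moved to the 25th percentile (7.53), a pseudocount replaced it, or dim probe sets were dropped. Arrays were scaled by quantiles or to a common 75th percentile, variances were fitted without trend, robustly or with array weights, and linear means were compared with unequal variances, as dChip does. The replicate number was used as a block, each replicate was left out, and the probe sets of a gene were averaged. On simulated data for fasted against fed (31042 probe sets), 45% of 100 probe sets changed 1.5-fold and 88% of 100 changed 3-fold had p under 0.05. An adjusted p under 0.05 was reached by 0% and 4% of them. The simulated noise was normal and independent, without shifts of whole arrays, and only probe sets well above the floor were changed. These rates may therefore not hold for the deposited arrays. Figures were made in matplotlib 3.10.9 under Python 3.11.15. The number of arrays limits the precision, and scan batches were not looked at.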

Additional observations from a re-analysis of the deposited data

How the results depend on the processing

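Among all probe sets, 2616 were lower and 737 higher. The lower count was 1498 after quantile normalization, 1329 with upper-quartile scaling, 6956 with array weights and 1625 with unequal variances. The higher count was 1272, 1430, 2469 and 269 under the same settings, 419 with the floor at the 25th percentile and 379 without dim probe sets. The estimation of array weights stopped before it converged and gave fasted replicate 2 a weight of 11.8. Leaving out 1 array gave 1448 (without fed replicate 1) to 5562 (without fasted replicate 3) lower and 472 (without fed replicate 3) to 1536 (without fasted replicate 3) higher probe sets.

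The count of higher genes among the 9 was 0 with the floor at the 25th percentile, without the intensity trend, with unequal variances, with the replicate block and with the mean of all probe sets, and 2 with upper-quartile scaling, where Fkbp5 was added (0.66). It was 0 to 1 when 1 array was left out, as was that of lower genes, where Sgk1 passed without fasted replicate 2. Cebpd lost its call at the same log2 change of 1.01 with the floor at the 25th percentile, without the trend and with the replicate block (unadjusted p = 0.0522 from limma), at 1.18 with unequal variances and at 0.39 with the mean of its probe sets. The direction turned for Cebpb (0.15 with quantiles, 0.23 with upper-quartile scaling, 0.066 with unequal variances), Tsc22d3 (0.021 with upper-quartile scaling), Dusp1 (-0.13 with array weights, -0.044 with unequal variances, -0.027 with the mean of its probe sets), Nr3c1 (-0.052 with that mean) and Klf9 (0.22 with that mean). Apart from the probe sets that were averaged in, the cause was not tested. Without 1 array the log2 change ran from -0.024 to 0.18 for Nr3c1, -0.36 to 0.0040 for Tsc22d3, -0.74 to -0.26 for Sgk1, -0.18 to 0.32 for Dusp1, 0.53 to 1.35 for Cebpd and -0.35 to 0.19 for Cebpb. Hsd11b1 has no value without dim probe sets or without fed replicate 2.

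Over all probe sets, deviations of same-numbered arrays from their group means correlated at 0.0001, 0.01 and -0.05. Whether the isolates were prepared in pairs cannot be told from these values. With the number as a block 2046 probe sets were lower and 644 higher.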
